A study of Mus musculus with 6 samples.

Results

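The genes of the BCL2 family set the threshold for mitochondrial apoptosis, and their chromatin was compared between MLL-ENL–transformed cells with and without C/EBPα and C/EBPβ. The 10 genes were Bcl2, Bcl2l1, Mcl1, Bcl2l11, Bmf, Bbc3, Bid, Bik, Bax and Pmaip1. A region was assigned to a gene where it overlapped the annotated gene body extended by 50 kb on each side, which placed 14 of the 10016 listed regions at 7 of the 10 genes. All 14 regions were more accessible in the cells without both factors, by 0.54 to 4.00 on the log2 scale. Of all listed regions, 60.3% were more accessible in these cells, and 47.1% of protein-coding genes had a listed region within 50 kb. The median change of 1.62 at the 10 genes lay near the 1.58 of all regions with a gain. Bcl2l11, Bik and Bax had no listed region within 50 kb.

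Proteins of this family meet at the outer mitochondrial membrane. BCL2, BCL-XL (encoded by Bcl2l1) and MCL1 hold the effectors BAX and BAK in check, whereas the BH3-only proteins, which share a single short helix with the rest of the family, occupy the survival proteins or engage the effectors directly. Once the effectors form pores, cytochrome c leaves the mitochondria and caspases are activated. In the myeloid lineage MCL1 is known as a main survival protein of progenitors and neutrophils, and cytokine withdrawal is known to act in part through BIM (Bcl2l11) and PUMA (Bbc3).

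ATAC-seq measures open chromatin by the insertion of sequencing adapters with the Tn5 transposase. The cells were mouse fetal liver cells immortalised by retroviral MLL-ENL, kept in medium with IL-3. WT cells carried Cebpa and Cebpb that could still be deleted (floxed alleles) and no vector was named for them, whereas in dKO cells both genes had been deleted and GFP was expressed from a vector. The dKO cells were rare clones that had survived treatment with Cre protein, and per the study they expressed C/EBPε, so that deletion, clone, vector and survival of selection cannot be told apart in this comparison. Which clones the ATAC-seq libraries came from, and whether both dKO libraries came from the same one, was not given in the sources used here. A further group, dKO cells with the rat LAP* isoform of C/EBPβ and GFP, was not analysed here. Each group had 2 libraries, but the deposited table gives only 1 mean per group and region. No spread between replicates could be computed, no test was run, and every difference below is a difference of group means in regions that had passed the cutoff of the study.

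Group means are given as log2 of normalised reads, and a change is the dKO mean minus the WT mean. The lowest mean, -0.15 in both groups, was taken as the level of 1 read in each library, which puts 3 reads per library at 1.43. The deleted genes were checked first, and the region over Cebpa went from 9.99 in WT to -0.15 in dKO, and the region at the Cebpb promoter from 8.60 to 3.37. Another region listed at Cebpb went from 7.38 to -0.15. Since unchanged regions are not listed, the labelled cell type could not be checked against its markers.

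**Figure D1:**
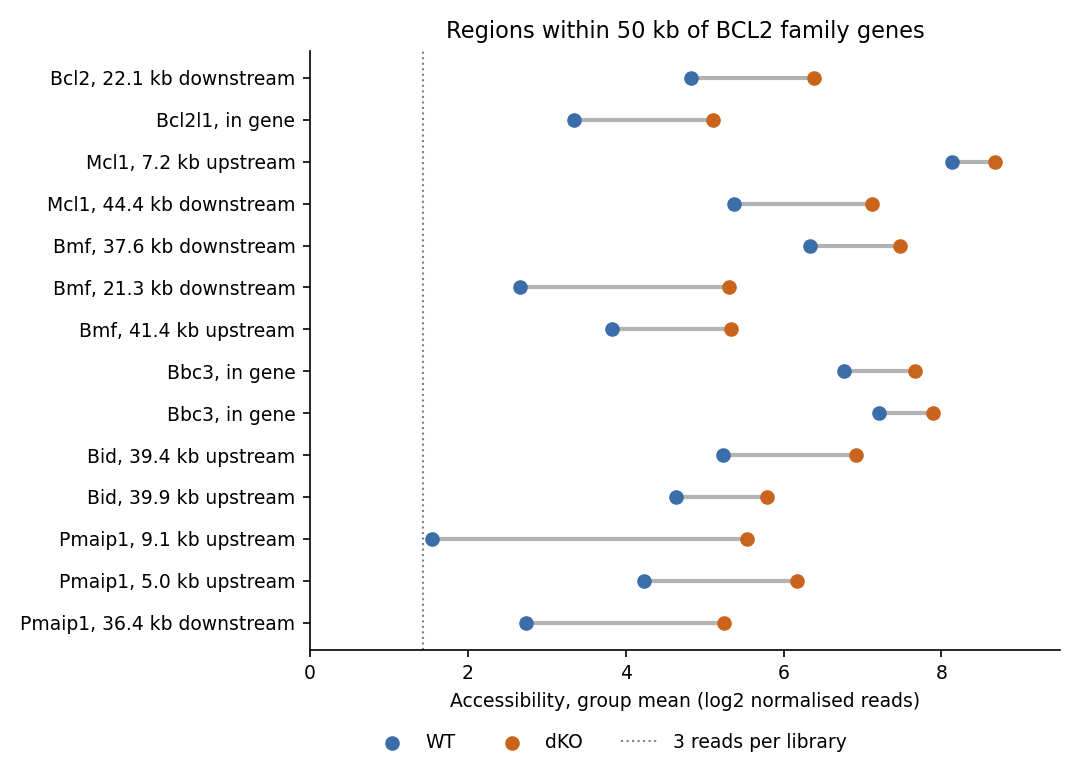
Group mean accessibility (x axis, log2 normalised reads) of the 14 regions within 50 kb of a BCL2 family gene, 1 region per line, named by its gene and its distance from the gene body. Blue points are WT means and orange points dKO means of 2 libraries each, with no error available. Each orange point lies to the right of its blue point, and the widest gap is at Pmaip1, from 1.54 to 5.54.

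The direction was then set against all listed regions. Of these, 60.3% were higher in dKO, against 14 of 14 at the BCL2 family. At least 2-fold higher were 11 of the 14, against 49.6% of all listed regions and 82.4% of those with a gain. The median change at the family was 1.62, against 0.98 over all listed regions and 1.58 over those that were higher in dKO. At least 4-fold higher were 3 of the 14 regions, against 19.3% of all listed regions and 32.1% of those with a gain. Neighbouring regions share their surroundings, and the 14 regions come from 7 loci.

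A listed region within 50 kb was found for 47.1% of 21938 protein-coding genes and for 7 of the 10 family genes. Among the genes that had such a region, 50.2% had higher regions only, as did all 7 of the family. With 2 or more regions, higher regions only were found at 42.3% of 4878 genes and at 5 of 5 family genes. Long genes have longer windows, and Bcl2 had the longest at 276097 bp, with a single region. The 10 windows together held 10.3 listed regions per Mb, against 5.07 per Mb in the windows of all protein-coding genes.

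**Figure D2:**
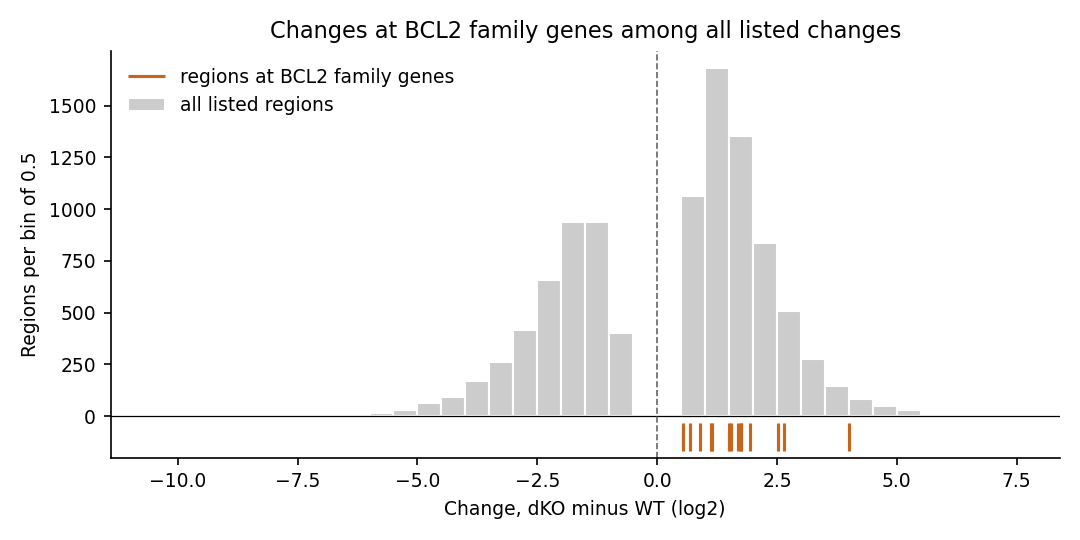
Number of listed regions (y axis) by change in accessibility (x axis, dKO minus WT, log2, in bins of 0.5), with the 14 regions at BCL2 family genes as orange ticks under the axis. The ticks run from 0.54 to 4.00, all on the side of gain, and their median of 1.62 falls near the median of 1.58 of all gains.

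The sequences that follow show what some of these regions look like. They are the central 200 bp of each region on the forward strand of mm10, read from the RefSeq copy of GRCm38.p6. Capitals mark matches on either strand to TTGCNNAA or TTACNNAA (C/EBP), TGACTCA (AP-1), GAGGAAGT (PU.1) and AACCACA (RUNX). The 3 regions around Bmf are shown because each carries an AP-1 string, and the region downstream of Mcl1 as an example with 3 different strings within 200 bp. A pair of regions at Pmaip1 also carried 3 different strings each, and their sequences are not shown.

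Bmf, chr2:118490523-118490722: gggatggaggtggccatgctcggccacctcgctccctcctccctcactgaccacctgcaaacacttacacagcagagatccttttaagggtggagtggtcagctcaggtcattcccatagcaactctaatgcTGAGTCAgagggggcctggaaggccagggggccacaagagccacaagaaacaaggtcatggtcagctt

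Bmf, chr2:118507251-118507450: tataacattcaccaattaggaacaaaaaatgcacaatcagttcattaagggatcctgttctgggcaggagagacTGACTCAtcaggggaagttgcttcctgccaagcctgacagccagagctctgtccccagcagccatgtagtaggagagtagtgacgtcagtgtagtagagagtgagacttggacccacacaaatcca

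Bmf, chr2:118591157-118591356: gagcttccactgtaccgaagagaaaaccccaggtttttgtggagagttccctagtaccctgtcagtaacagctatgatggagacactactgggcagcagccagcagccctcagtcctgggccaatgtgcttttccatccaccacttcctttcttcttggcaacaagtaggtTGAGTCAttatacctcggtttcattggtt

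Mcl1, chr3:95707639-95707838: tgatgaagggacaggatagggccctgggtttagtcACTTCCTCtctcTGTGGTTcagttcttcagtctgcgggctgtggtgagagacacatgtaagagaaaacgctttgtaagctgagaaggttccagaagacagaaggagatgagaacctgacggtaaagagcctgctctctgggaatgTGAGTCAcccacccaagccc

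The intronic region of Bbc3 is shown for contrast, as a GC-rich sequence without any of the strings.

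Bbc3, chr7:16310090-16310289: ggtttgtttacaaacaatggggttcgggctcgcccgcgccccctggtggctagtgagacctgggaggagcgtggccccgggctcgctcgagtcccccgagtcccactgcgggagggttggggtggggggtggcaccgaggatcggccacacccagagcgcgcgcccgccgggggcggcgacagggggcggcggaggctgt

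Of the 14 regions, 6 had the AP-1 string in the central 200 bp, which is 42.9%, against 17.9% of all listed regions and 26.7% of those higher in dKO. These 6 regions lay at Bmf, Mcl1 and Pmaip1 only. RUNX was present in 4 regions (28.6%, against 11.9% and 13.8%). C/EBP was found in 2 regions, both at Pmaip1 (14.3%, against 28.4% and 20.1%), and PU.1 in 1 region (7.14%, against 9.22% and 13.1%). In the central 200 bp, none of the strings occurred in 7 regions, namely at Bcl2, at Bcl2l1, upstream of Mcl1, at both Bbc3 regions, at 1 of the Bid regions and at the Pmaip1 region farther upstream. The other 7 regions had at least 1 string there, against 54.7% of all listed regions and 57.8% of those higher in dKO, a share near the background. Over its whole length, the Bcl2 region held a RUNX string, and the region upstream of Mcl1 held AP-1 and PU.1 strings. A C/EBP string also lay in the Bmf region 37648 bp downstream, outside the central 200 bp. With 14 regions these shares rest on few sequences, and a matching string is not a bound site.

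The survival genes were examined first. All 3 had listed regions, 4 in total, beside 47.1% of protein-coding genes. Their median change of 1.65 lay near the 1.58 of all regions with a gain. At Mcl1, the strongest region of the whole family lay 7202 bp upstream of the gene (chromosome 3, 95650451 to 95651585), in intergenic sequence whose nearest annotated start site is that of Mcl1. Its mean was 8.14 in WT and 8.68 in dKO, a change of 0.54 and the smallest of the 14. Counting error alone gave a 95% interval of 0.39 to 0.69 for this change. The region was already open in WT, and dKO accessibility was 1.45-fold higher.

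The other Mcl1 region, 44362 bp downstream (chromosome 3, 95707539 to 95707937), went from 5.37 in WT to 7.12 in dKO, a change of 1.75 with a counting interval of 1.41 to 2.10. It lies between genes and nearest to the start site of Adamtsl4, 19622 bp away, so that it can be assigned to Mcl1 only by the window. The same holds for its sequence with AP-1, PU.1 and RUNX strings shown above.

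For Bcl2, no region in the body of the gene, which spans 176097 bp, was listed. Its single region lay 22090 bp beyond the 3′ end (chromosome 1, 106515626 to 106516087), with 4.83 in WT and 6.38 in dKO. The change was 1.55, or 2.93-fold, with a counting interval of 1.13 to 1.99. No other protein-coding gene lies within 50 kb of this region, although the nearest start site belongs to the transcript D630008O14Rik, 25856 bp away.

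At Bcl2l1 the region was inside the gene, near its 3′ end and overlapping the untranslated part of an exon (chromosome 2, 152781120 to 152781589). Its mean was 3.34 in WT and 5.10 in dKO, the lowest dKO level of the family. The change of 1.76 carried a counting interval of 1.09 to 2.54, since only about 22 reads in the WT libraries together and 76 in dKO stood behind it. The nearest annotated start site, 8231 bp away, is that of the transcript Gm23802. Neither the promoter of Bcl2l1 nor that of Bcl2 or Mcl1 was among the listed regions.

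**Figure D3:**
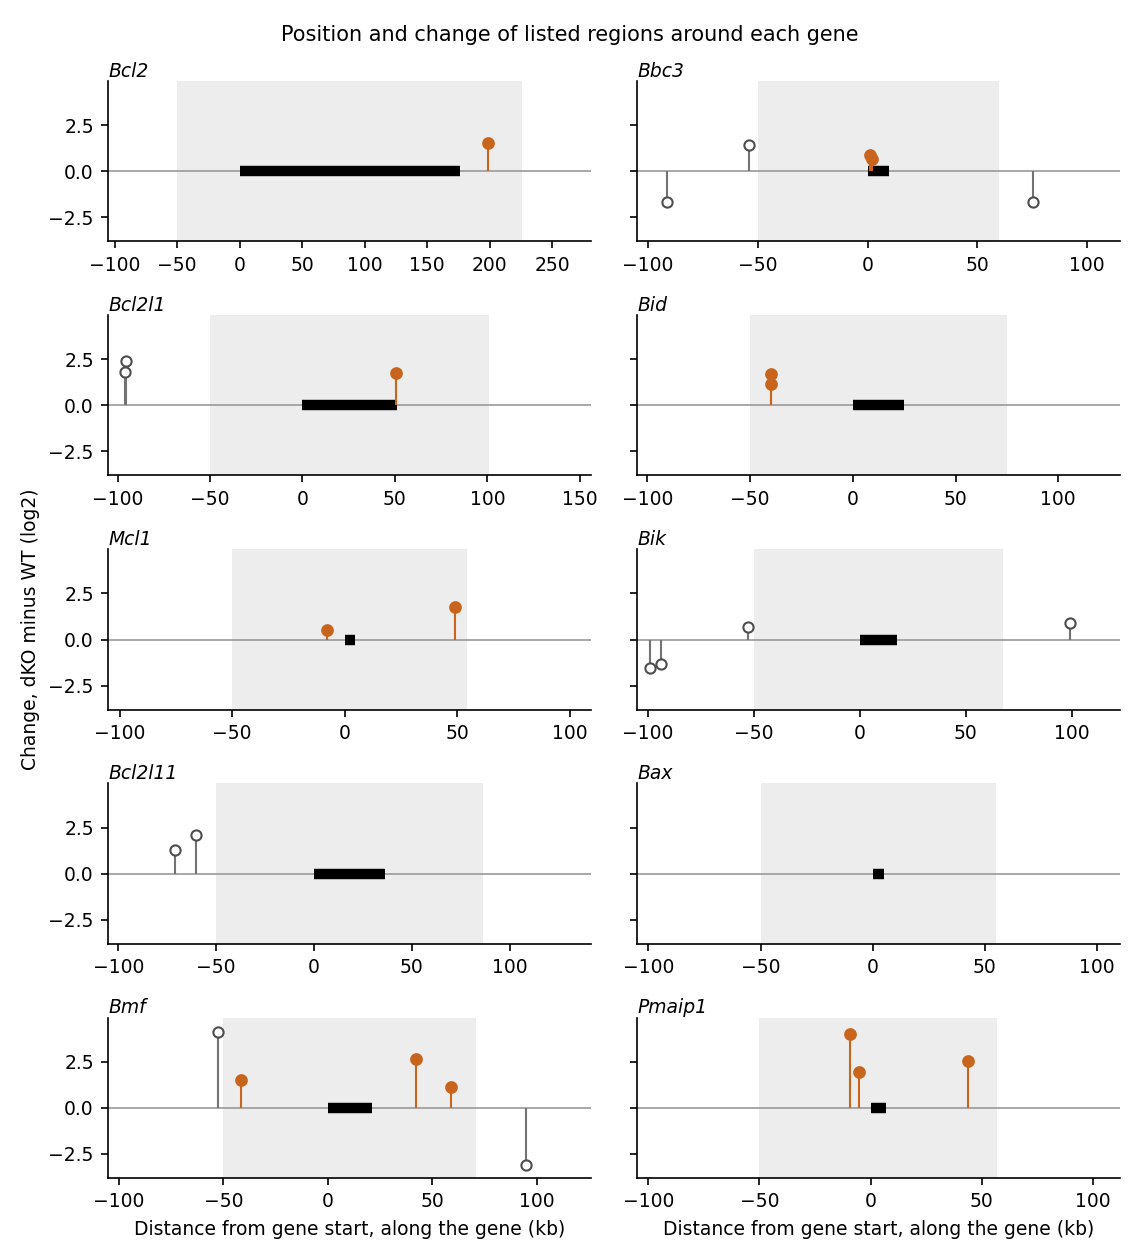
Listed regions around each of the 10 genes, by the distance of the region centre from the gene start along the gene (x axis, kb) and the change in accessibility (y axis, dKO minus WT, log2). Black bars are gene bodies, grey shading is the window of 50 kb on each side, orange points lie in the window and open points 50 to 100 kb away. All orange points lie above 0, 5 of the 13 open points lie below it, and Bax has neither.

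The BH3-only genes held 10 regions at 4 of 6 genes, with a range of change of 0.68 to 4.00. Their median of 1.60 lay near the 1.58 of all regions with a gain, and the count of genes stands beside 47.1% of protein-coding genes with a region. The largest change of the family was at Pmaip1, which encodes NOXA, a protein that binds MCL1. A region 9084 bp upstream (chromosome 18, 66449131 to 66449448) had a mean of 1.54 in WT, just above 3 reads per library, and of 5.54 in dKO. The difference of 4.00 corresponded to a 16.0-fold higher value in dKO, but about 6 WT reads in both libraries together stood behind it, and its counting interval ran from 2.93 to 5.58.

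Pmaip1 had a pair of further regions. The closer one, 4979 bp upstream (66453219 to 66453553), had 4.23 in WT and 6.17 in dKO, a change of 1.94. The other, 36421 bp downstream (66501987 to 66502321), had 2.73 and 5.25, a change of 2.52, and lies 1857 bp from the start site of the transcript AC100212.9. Both carried C/EBP, AP-1 and RUNX strings in the central 200 bp. No other protein-coding gene has its body within 50 kb of any of the 3 regions, which among the family held for Pmaip1 and Bcl2 only.

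Bmf, whose product is known to be released from the cytoskeleton upon loss of attachment, also had 3 regions, all outside the gene. The region 21257 bp downstream (chromosome 2, 118507201 to 118507499) went from 2.66 to 5.31, a change of 2.65 and 6.28-fold, with about 14 reads in WT and 88 in dKO. The region 37648 bp downstream (118490137 to 118491108) was stronger and changed less, from 6.34 to 7.47, or by 1.13. The region 41386 bp upstream (118591074 to 118591438) went from 3.82 to 5.33, a change of 1.51, and lies nearer to the start site of Bub1b, 6773 bp away, than to Bmf. Both downstream regions lie nearer to Srp14 than to the start of Bmf. The nearest annotated start sites of any kind were those of the transcripts Gm13983 for the downstream regions and Gm14016 for the upstream one.

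Bbc3 was the only one of the 10 genes with a listed region over its own start site. PUMA, its product, binds all main survival proteins and is a known target of p53. A region overlapping an annotated start site and untranslated exon (chromosome 7, 16309333 to 16309656) had 6.77 in WT and 7.66 in dKO, a change of 0.89 with a counting interval of 0.66 to 1.12. The intronic region 322 bp further on (16309979 to 16310399) had 7.21 and 7.89, a change of 0.68 with an interval of 0.48 to 0.88. Together with the region upstream of Mcl1, these were the 3 changes under 2-fold in the family. Their GC content was 75.9% and 74.3%, against a median of 50.6% over the 14 regions.

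Bid encodes a BH3-only protein that caspase-8 cleaves, which links death receptors to mitochondria. Its pair of regions lay 11 bp apart in an intron of Mical3, 39428 and 39852 bp upstream of Bid (chromosome 6, 120956282 to 120956694 and 120956706 to 120957143). The first went from 5.23 in WT to 6.92 in dKO, a change of 1.69, and the second from 4.64 to 5.79, a change of 1.15. An annotated start site of a Mical3 transcript is 1029 and 580 bp away, so the regions are closer to Mical3 than to Bid.

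Bcl2l11, Bik and Bax remained without a listed change in their windows, which says only that no region there passed the cutoff. For Bcl2l11, the gene of BIM, the nearest listed region was 60097 bp upstream and rose from 4.71 to 6.82. For Bik it was 52490 bp upstream, just outside the window, with 7.10 and 7.78. For Bax, an effector, it was 213093 bp away. Widening the window to 100 kb gave 27 regions at 9 genes, beside 63.0% of protein-coding genes with a region in that window. Of the 27 regions 22 were higher and 5 lower in dKO, beside 60.3% of all listed regions that were higher. The uniform direction held within 50 kb and not beyond.

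Only 3 of the 14 regions lay inside a gene body of the family, 6 were upstream and 5 downstream. By the nearest annotated start site, 5 regions belonged to a family gene (Mcl1 with 1, Bbc3 and Pmaip1 with 2 each) and 9 to another transcript. Taken as pairs, the regions of Bbc3 and of Bid are less than 500 bp apart, and counting each pair as 1 region left 12.

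**Figure D4:**
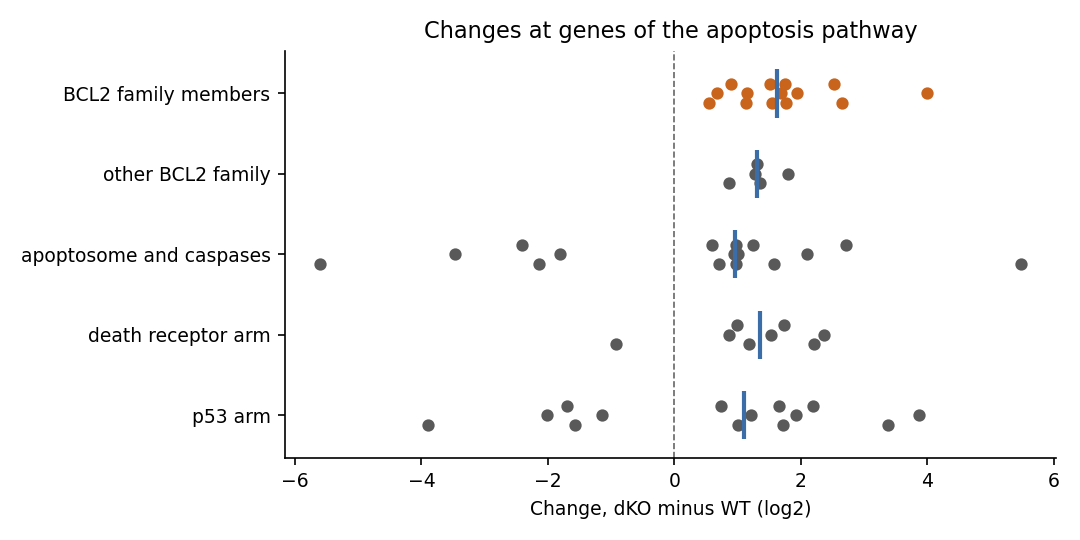
Change in accessibility (x axis, dKO minus WT, log2) of each listed region within 50 kb of the genes of 5 lists, 1 point per region, with the median of each list as a blue line. The 14 points of the 10 family genes and the 5 points of the other BCL2 family genes all lie above 0, whereas the lists of caspases and of p53 have 5 points each below it.

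Genes that act with the family were looked at in the same way. Of 15 other genes of the BCL2 family and its mitochondrial relatives, 5 had a region, each a single higher one, with a median of 1.30. That is 33.3% of the genes, below the 47.1% of all protein-coding genes, and the direction stands beside 60.3% of all listed regions that were higher. The region at Bcl2a1a, which encodes the survival protein A1, covered its start site (chromosome 9, 88956391 to 88957180) and went from 5.45 to 6.80. Bcl2a1a, Bcl2a1b and Bcl2a1d are near-identical copies, so reads cannot be placed on them with certainty. The remaining regions, named after their values had been seen, were at Bak1, which encodes the other effector, over coding exons of Bak1 and of the overlapping Ggnbp1 with 6.75 and 8.05, and outside Bcl2a1b, Bcl2l10 and Bnip3.

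For the apoptosome and caspases, 11 of 18 genes (61.1%, against 47.1% of protein-coding genes) had 16 regions, 11 higher and 5 lower, with 60.3% of all listed regions higher. A region inside Casp6, which encodes an executioner caspase, went from 3.44 to 6.16. In an intron of Loxl3, a region 12229 bp past the end of Htra2 went from 0.38 in WT, under 3 reads per library, to 5.86 in dKO. The change of 5.48 rested on about 3 WT reads in both libraries together and had a counting interval of 3.85 to 7.72. Lower in dKO were an intronic region of Birc3, an inhibitor of apoptosis (chromosome 9, 7862937 to 7863275), with 4.69 and 2.55, which also falls in the window of Birc2, and a region 41414 bp upstream of Birc5 with 5.14 and 1.67, which lies only 1832 bp from the start site of Syngr2. The 2 lower regions assigned to Dffa, at 7.62 and 2.02 and at 4.86 and 2.45, lay in introns of Pex14, and a higher one at 5.72 and 6.66 in an intron of Pgd. The region near Birc6, over the start site of the transcript AC154442.1, had 8.36 and 9.06.

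Of 12 genes of the death receptor arm, 6 had a region, beside 47.1% of protein-coding genes. Of their 8 regions 7 were higher, beside 60.3% of all listed regions. The start sites of Casp8, the initiator caspase of this arm, were covered by a pair of regions with 6.50 and 7.49 and with 6.46 and 7.33. These also fall in the window of its neighbour and inhibitor Cflar, where an intronic region went from 4.16 to 6.37. A region 28178 bp upstream of Tnfaip3 had 4.20 and 6.57, and the 1 lower region, named after its value had been seen, lay 3245 bp past the end of Cyld, with 7.47 and 6.55.

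In the p53 arm, 6 of 10 genes (beside 47.1% of protein-coding genes) had 14 regions, 9 higher and 5 lower, a split near the 60.3% of all listed regions that were higher. Near Cdkn1a, the gene of the cell cycle inhibitor p21, a region 19993 bp upstream in an intron of the noncoding Trp53cor1 went from 1.96 to 5.83, or 14.6-fold higher, and another over the start site of Trp53cor1 was at 7.73 in dKO with a change of 0.73. Mdm2, which encodes the ligase that degrades p53, had regions in both directions, with 4.18 and 6.37 at 6821 bp upstream, 5.49 and 7.21 at 10687 bp upstream, and 6.33 and 5.19 at 11452 bp downstream in an intron of Cpm. Among the relatives of p53, Trp63 had 3 higher regions, all within the gene, with 1.81 and 5.19 at the most changed. The window of Trp73 had 3 lower regions, of which a pair lay in its introns, with 5.18 and 3.16 and with 5.47 and 3.90. The most changed of the 3, with 5.33 and 1.43, lay 48702 bp upstream in an intron of Megf6, 18181 bp from the Megf6 start site, and is assigned to Trp73 only by the window. Its dKO mean is at the level of 3 reads per library. The change rested on about 6 dKO reads in both libraries together and had a counting interval of -5.38 to -2.71.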

How the data were processed

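ATAC-seq libraries of 6 samples in 3 groups of 2 were described in the labels, at a mean depth of 25000000 reads. Per the labels and the methods of the study, the authors preprocessed reads with PiGx, aligned them to mm10 with Bowtie2, called peaks with MACS2 and compared groups with DiffBind 2.14.0 at a corrected P-value of 0.05. Duplicate handling, Tn5 offset and peak merging were not given in the sources used here. Kept duplicates would raise the means of strongly amplified regions, and a missing offset would move edges by a few bases.

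The deposited values are log2 group means of normalised reads for WT and dKO. Further columns, the mean of both groups and the authors' fold change, p-value and FDR, were not used. The 2 files held 1 distinct table, without dKO-LAP* columns. Depth per library is not in the table. Low means fell on steps of whole reads in 87.3% of 267 WT and 100% of 281 dKO values up to 3 normalised reads, within 0.005 on the log2 scale, at the best of the depth ratios tried between the libraries of a group, against medians of 23.6% and 24.6% over all ratios tried. Reads were estimated from these steps as if both libraries of a group were of equal depth. Intervals are exact Clopper-Pearson intervals (95%) of the share of reads in dKO, cover counting error only and leave out the spread between replicates.

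Annotation was GENCODE M21 and sequence GRCm38.p6 from RefSeq, whose chromosomes are those of mm10. Analyses used Python 3.11.15, pandas 2.3.3, SciPy 1.17.1 and pysam 0.24.0, with functions tested on simulated data. The genes and lists were chosen with earlier results of these data known. Named were all regions at the 10 genes and, from the other lists, genes with a region over a start site or an absolute change of at least 2. Neighbouring genes were named where their start site was the nearest to a region at the 10 genes. A result that the rule would name is not reported here. Alternatives varied the window, the threshold, the pseudocount, the centring and the motif window.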

Additional observations from a re-analysis of the deposited data

How the results depend on the processing

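No paired analysis was possible because only group means were at hand, and the shared replicate numbers of WT and dKO could not be used. Leaving out single replicates was not run either, since it needs values per library. The alternatives were fixed with earlier results known, except the merging of regions under 500 bp apart, which was chosen after seeing the data.

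The number of regions at the 10 genes followed the window, with 3 in the gene body (median change 0.89), 6 within 10 kb and 5 by the nearest start site, all higher in dKO, and 27 within 100 kb, 22 higher and 5 lower. Of all listed regions, 60.3% were higher. Genes of the family with a region numbered 2, 4 and 9 in the body, within 10 kb and within 100 kb, against 16.8%, 24.8% and 63.0% of protein-coding genes. Requiring an absolute change of at least 2 left 3 regions, all higher. Subtracting the median change of all listed regions left 11 higher and 3 lower, with a median of 0.64, and reversed the region upstream of Mcl1 (-0.44) and both regions of Bbc3 (-0.09 and -0.30). Only 1 of the 14 changes stayed within its counting interval. This follows from the median of 0.98 that was subtracted, which was taken over changed regions alone. A pseudocount of 1 kept all 14 changes within their counting intervals, and one of 5 kept 13, with the largest Pmaip1 change at 2.70.

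The PU.1 string was in 2 regions, in place of 1, in the central 400 bp and in whole regions. Higher and lower regions in gene bodies, within 10 kb and within 100 kb numbered 2 and 0, 3 and 0, and 13 and 5 for the other BCL2 family, 1 and 1, 7 and 1, and 16 and 14 for the apoptosome and caspases, 3 and 0, 4 and 1, and 11 and 3 for the death receptor arm, and 4 and 2, 5 and 3, and 13 and 6 for the p53 arm. Among the 14 regions, the Pmaip1 region with about 6 WT reads had the widest counting interval.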

Other observations

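Between 50 and 100 kb from the genes, 13 further regions were listed, at 5 genes. Of these 13 regions, 5 were lower in dKO and the rest higher, beside 60.3% of all listed regions that were higher. The 2 regions at Bcl2l11 lay 60097 and 70752 bp upstream, in introns of Acoxl, and were both higher in dKO, with 4.71 and 6.82 and with 4.59 and 5.87. Upstream of Bcl2l1, 2 regions were higher in dKO, with changes of 2.39 and 1.81, but they lay 5919 and 5426 bp from the start site of Foxs1. The surroundings of Bmf had regions in both directions, with a region 52188 bp upstream, in an intron of Bub1b and 1758 bp from a start site of that gene, that went from 1.20 in WT, under 3 reads per library, to 5.34 in dKO, and a region 73946 bp downstream near Eif2ak4 that went from 4.80 to 1.67. At Bbc3 the regions 91295 bp upstream and 65440 bp downstream both had a change of -1.65, near Dhx34 and Sae1, whereas a region 53825 bp upstream in an intron of C5ar1 was higher in dKO, with 4.59 and 6.03. At Bik, 2 regions at Pacsin2 were lower in dKO, with changes of -1.55 and -1.32, and the other 2 were higher, with 0.68 and 0.92. These regions were described after their values had been seen.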
